A study of Mus musculus with 6 samples.

Results

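The genes described here are the 10 that the authors' table holds for cytosolic fatty acid synthesis, desaturation and elongation, chosen by symbol out of 26778 genes listed: Acly, Acaca, Fasn, Scd1, Scd2, Fads1, Fads2, Elovl1, Elovl5 and Elovl6. They were measured by RNA sequencing in macrophages that had been grown in culture from mouse bone marrow. Cells came from Flt-1+/- mice, heterozygous for the gene of VEGF receptor 1 (n = 3 libraries), and from Flt-1+/+ wild type mice (n = 3 libraries), both on a C57BL/6 background. All 6 libraries were made from cells taken at day 7 of culture in conditioned medium and then held for 6 h in starvation medium at 2% oxygen, so the comparison is between genotypes under 1 shared challenge. The kind of Flt1 allele, the age and sex of the mice and the number of animals were not stated in the sources used here. The p-values therefore reflect variation among these libraries only, and part of it may be technical.

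Fatty acids are built in the cytosol from acetyl-CoA. ATP citrate lyase (Acly) makes acetyl-CoA from citrate, acetyl-CoA carboxylase (Acaca) turns it into malonyl-CoA, and fatty acid synthase (Fasn) joins these units into palmitate. In the endoplasmic reticulum, elongases of the Elovl family lengthen the chain and desaturases add double bonds: the stearoyl-CoA desaturases (Scd) make monounsaturated fatty acids, and Fads1 and Fads2, the delta-5 and delta-6 desaturases, act in making long polyunsaturated fatty acids from dietary precursors. Many of these genes are known targets of the SREBP transcription factors, which also drive sterol synthesis, and of the liver X receptors. In macrophages the pathway supplies membrane lipid, and its products are precursors of lipid mediators.

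The authors' table gives 1 mean normalized count per genotype, that is reads per gene divided by a size factor per library, and a test between genotypes. Counts of the single libraries were recovered from these means for 9 of the 10 genes. Within a genotype these recovered libraries are called A, B and C, letters that cannot be tied to the replicate numbers of the labels. Per library, an estimated 25130000 to 42070000 reads had been counted. Flt1 itself had 17.1, 12.9 and 8.19 normalized counts in heterozygotes and 3.70, 10.3 and 6.04 in wild type (adjusted p = 0.641 by the authors' deposited table), so at this depth it does not check the genotype labels, and every direction given here is between libraries as labelled. The mitochondrial gene mt-Co2 had reads in heterozygote library A and wild type libraries A and B and was listed at 0 in the other three, so the libraries form sets that cut across genotype.

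Genes with an adjusted p under 0.05 in the authors' deposited table are called higher or lower. All 10 genes were tested there, 6 were higher and 0 lower in heterozygote libraries, and 4 were not called. Over all 15789 genes tested, 2.51% were called higher and 3.52% lower, 6.04% in all. At an adjusted p of 0.01 the table called 4 of the 10 genes, beside 3.64% of all genes, and at 0.1 it called 6, beside 8.03%. The mean was higher in heterozygotes for 10 of 10 genes, with log2 ratios of the group means (pseudocount of 1) between 0.0009 and 1.82 and a median of 0.46. Over all genes tested the median log2 ratio was -0.0068, and the quartiles were -0.20 and 0.18. By role, 4 of 4 desaturases and 2 of 3 genes of the first steps were called higher, against 0 of 3 elongases. In bulk RNA, more cells of a type and more RNA per cell cannot be told apart.

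A second look with limma, a linear model with a shared estimate of the spread, used the recovered libraries. It called Fads2 and Scd1 higher, 2 of the 9 genes it could fit, and none lower. Its background among 14948 genes was 0.809% higher and 1.34% lower, 2.15% in all, and before adjustment 6 of the 9 genes had p under 0.05. Every heterozygote library lay above every wild type library for 6 of these 9 genes, beside 11.2% of all genes fitted. With Scd2, whose library values, like those of Acly, were kept only within a set range of the mean, it was 7 of 10.

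**Figure D1:**
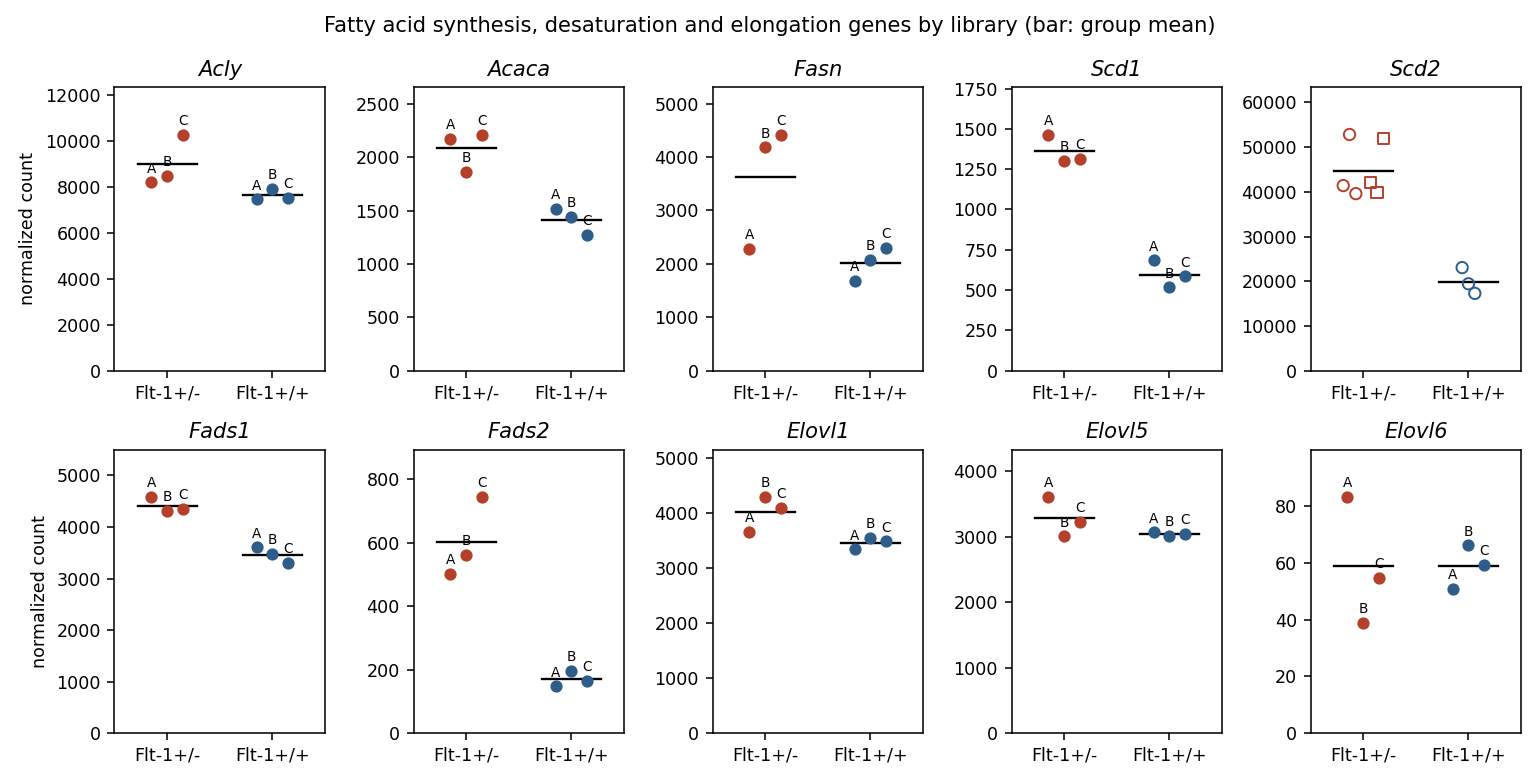
Normalized count (y axis, a scale of its own per gene) of each gene in the 3 Flt-1+/- and the 3 Flt-1+/+ libraries (points, letters A to C; bars, group means); for Scd2 open circles and squares are alternative solutions of the library counts. Scd1, Scd2, Fads1, Fads2 and Acaca separate by genotype, as do Acly and Elovl1 by a smaller margin, while Fasn overlaps through heterozygote library A and Elovl5 and Elovl6 overlap.

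The promoter sequences of Fasn and Acly are shown because both are first-step genes on chromosome 11 with start sites in the RefSeq table, and 1 was called and the other was not. They are the 250 bases before the RefSeq start site (build GRCm38.p6), on the minus strand at chr11:120824548-120824797 for Fasn and chr11:100528001-100528250 for Acly. Capitals mark matches on either strand to CCAAT, the core bound by NF-Y (ATTGG when read on the other strand), and to GGGCGG, a core bound by Sp1 (CCGCCC on the other strand).
Fasn: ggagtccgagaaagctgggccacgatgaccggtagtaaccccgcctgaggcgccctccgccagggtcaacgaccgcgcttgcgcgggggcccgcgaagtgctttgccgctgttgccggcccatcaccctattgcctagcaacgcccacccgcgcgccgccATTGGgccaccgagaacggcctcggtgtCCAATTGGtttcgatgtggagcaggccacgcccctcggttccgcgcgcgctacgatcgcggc
Acly: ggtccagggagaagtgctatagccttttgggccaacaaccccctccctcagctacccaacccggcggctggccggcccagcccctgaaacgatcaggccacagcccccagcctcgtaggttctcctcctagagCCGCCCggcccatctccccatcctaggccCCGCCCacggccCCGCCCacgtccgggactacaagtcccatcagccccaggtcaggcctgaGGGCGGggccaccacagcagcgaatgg

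The Fasn window held 3 CCAAT matches, which begin 90, 62 and 59 bases before the start site (positions -90, -62 and -59), and the last 2 share letters. Its 1 CANNTG match lies inside these last 2. The Acly stretch held 4 GGGCGG matches, at positions -117, -88, -76 and -27, and its window also held 1 CCAAT match after the start site, at position 38, past the bases printed. The RefSeq table, with windows of 250 bases before to 50 after each start site, matched 7 of the 10 genes in 8 windows. Scd1, Scd2 and Fads1, which were called higher, had no window there and were not searched. None of the 8 windows held the SREBP element TCACNCCAC or the DR4 element, the direct repeat bound by liver X receptors, on either strand. Of all 32851 RefSeq promoters of this length, 1.24% held the first and 0.0152% the second. CCAAT was in 37.4% and GGGCGG in 35.7% of all promoters, and the palindrome CACGTG, an E-box, in 7.15%. The wider E-box core CANNTG, which includes CACGTG, was in 72.3%. Among the genes not called, Elovl5 held 1 CACGTG at -161 and 2 CCAAT matches, Elovl1 held 5 GGGCGG matches and 1 CCAAT match in 1 window (the CCAAT overlapping a GGGCGG match) and 2 GGGCGG matches in another, and Elovl6 held no match to any of the letters searched. CANNTG had 2 matches in the Elovl5 window, its CACGTG among them, 1 and 2 in the windows of Elovl1, and 0 in that of Acly. Among the called genes, the Fads2 window held 1 GGGCGG match at -186, which lies inside the gene's span in GENCODE, and 0 CANNTG. The Acaca window, which starts inside the gene's span, held 1 CANNTG. These matches are letters found in a window and not binding sites.

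Acaca and Fasn, the committing and the chain-building enzymes of fatty acid synthesis, rose in heterozygote libraries, and Acly did not pass the test. Acaca (ENSMUSG00000020532, chromosome 11, 84129672 to 84401651, build mm10) stood at 2174, 1865 and 2213 normalized counts in heterozygote libraries A, B and C, against 1517, 1443 and 1274 in wild type libraries A, B and C. The lowest heterozygote library was above the highest wild type one, and the means differed 1.48-fold. Its log2 fold change in the authors' deposited table was 0.53 ± 0.13 (SE; adjusted p = 0.00158). In limma the log2 difference was 0.56 ± 0.11 (SE; adjusted p = 0.0560), so that test did not call it. Of the 50-base stretches in Acaca transcripts, 29.2% also occur in the transcripts of Gm5182, a gene with a mean of 270 normalized counts, and the sources used here do not state how reads were shared between them.

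Fasn (ENSMUSG00000025153, chromosome 11, 120805846 to 120824547), the gene whose promoter is printed above, had 2280, 4179 and 4421 normalized counts in heterozygote libraries A to C and 1682, 2071 and 2303 in wild type libraries A to C. Heterozygote library A lay inside the wild type range, and the other two lay far above it. The ratio of the means was 1.80, and the authors' deposited table lists a log2 fold change of 0.68 ± 0.20 (SE; adjusted p = 0.0189). In limma the log2 difference was 0.80 with all libraries (adjusted p = 0.193), and Fasn was not called. Leaving out heterozygote library A gave 1.10 and a call (adjusted p = 0.0391), leaving out heterozygote library C gave 0.62, and with any library other than heterozygote A left out the adjusted p lay between 0.244 and 0.395.

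Acly (ENSMUSG00000020917, chromosome 11, 100476353 to 100528000) had 8211, 8503 and 10292 normalized counts in heterozygotes and 7461, 7937 and 7547 in wild type. The groups did not overlap, but the ratio of the means was 1.18 and the test did not call it (adjusted p = 0.379 by the authors' deposited table and 0.311 by limma).

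All 4 desaturases rose in heterozygote libraries, by 1.27-fold to 3.55-fold. Fads2 (ENSMUSG00000024665, chromosome 19, 10064164 to 10101503), the delta-6 desaturase, had the highest ratio of the 10 genes. It stood at 503, 562 and 744 normalized counts in heterozygote libraries and at 148, 196 and 166 in wild type libraries. Its lowest heterozygote library lay far above its highest wild type one. On the log2 scale the change was 1.55 ± 0.18 by the authors' deposited table (SE; adjusted p = 1.25e-14) and 1.81 ± 0.19 by limma (SE; adjusted p = 0.00910).

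Fads1 (ENSMUSG00000010663, chromosome 19, 10182888 to 10196870), the delta-5 desaturase that acts after Fads2, moved less. Heterozygote libraries had 4578, 4308 and 4350 normalized counts and wild type libraries 3604, 3478 and 3298. The groups did not overlap, and libraries within each were close together. The means differed 1.27-fold, with adjusted p = 0.0120 by the authors' deposited table and 0.0709 by limma. Per kb of exon, the level of Fads2 was 0.161, 0.190 and 0.250 of that of Fads1 in the heterozygote libraries, against 0.0599, 0.0822 and 0.0735 in the wild type libraries. This ratio separated the groups, as Fads2 alone did. The other ratios computed overlapped between genotypes: Fasn over Acaca, per kb, was 1.63, 3.49 and 3.12 in heterozygote libraries and 1.73, 2.24 and 2.82 in wild type libraries, and Scd1 over Fasn was 1.44, 0.697 and 0.666 in heterozygote libraries and 0.912, 0.558 and 0.568 in wild type libraries.

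Scd1 (ENSMUSG00000037071, chromosome 19, 44394451 to 44407709) had 1465, 1301 and 1315 normalized counts in heterozygotes and 685, 517 and 584 in wild type. The groups lay far apart, and the ratio of the means was 2.28. By the authors' deposited table its log2 fold change was 1.09 ± 0.14 (SE; adjusted p = 3.44e-12), and limma also called it (adjusted p = 0.0102). That limma call was lost without heterozygote library C (adjusted p = 0.0534) and without wild type library C (adjusted p = 0.0555). Scd1 shares sequence with the far more abundant Scd2, as given below, so reads of Scd2 may be among its counts.

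Scd2 (ENSMUSG00000025203, chromosome 19, 44293676 to 44306864), the stearoyl-CoA desaturase best known from mouse brain, was the most abundant of the 10 genes. Its authors' means were 44616 normalized counts in heterozygotes and 19932 in wild type, a ratio of 2.24. The authors' deposited table puts this at 1.06 ± 0.15 on the log2 scale (SE; adjusted p = 3.77e-10). Counts this high leave more than 1 solution for the single libraries, 3 in heterozygotes and 2 in wild type. Only solutions with every library between 0.5 and 2 times the group mean were kept, 2 in heterozygotes and 1 in wild type. Heterozygote libraries A to C stood at 41411, 52835 and 39602 in one solution and at 42090, 39816 and 51943 in the other, and wild type libraries at 23059, 19441 and 17295 in the single plausible one. The groups did not overlap in either, and with either solution limma also called Scd2, with adjusted p of 0.0160 and 0.0149. Because the range limits the spread between libraries, both results hold only for the solutions kept.

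**Figure D2:**
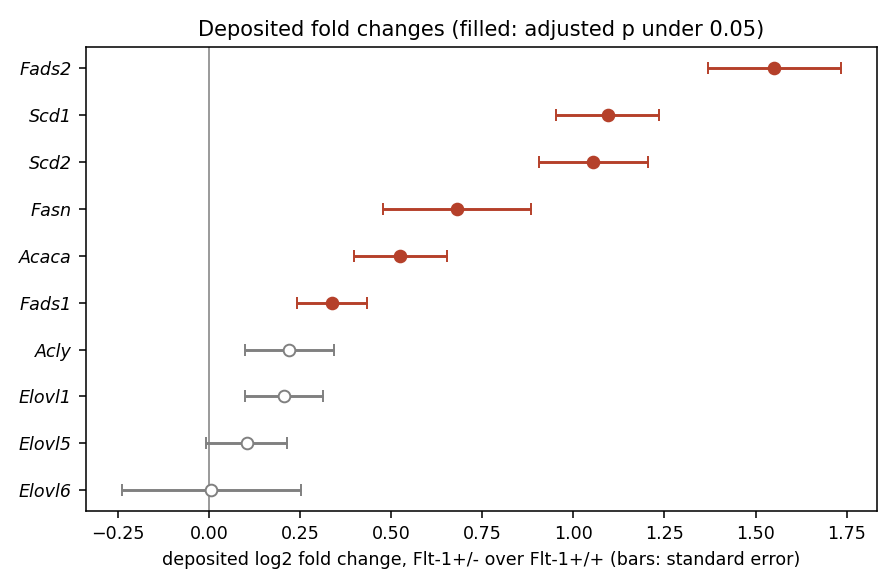
Log2 fold change of Flt-1+/- over Flt-1+/+ libraries (x axis) for each of the 10 genes from the authors' deposited table, with its standard error as a bar; filled points have an adjusted p under 0.05. The 4 desaturases, Fasn and Acaca are filled and lie between 0.34 and 1.55, and the 3 elongases and Acly are open and lie at 0.22 or lower.

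The remaining mouse Scd genes moved with Scd1 and Scd2. Scd3 had 218.5, 351 and 322 normalized counts in heterozygotes and 104, 159 and 34.2 in wild type, and was called (adjusted p = 0.0121, the authors' deposited table). Scd4 had 121, 154 and 179 in heterozygotes and 82.3, 69.9 and 71.4 in wild type, and was called too (adjusted p = 0.00326, the authors' deposited table). In limma their adjusted p values were 0.155 for Scd3 and 0.0574 for Scd4, so neither was called there. Scd genes share sequence: 3.89% of the 50-base stretches of Scd3, 2.97% of those of Scd1 and 1.64% of those of Scd4 also occur in Scd2. Of the stretches of Scd2, 2.66% occur in Scd1, 2.49% in Scd3 and 1.12% in Scd4. Scd2 had a mean of 32300 normalized counts over both genotypes, against 978, 198 and 113 for Scd1, Scd3 and Scd4. Reads of Scd2 could therefore make up a large part of the counts of these genes and of their differences between genotypes. How large a part was not tested.

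None of the 3 elongases passed either test. Before adjustment 0 did by the authors' deposited table, and Elovl1 did by limma (p = 0.0428). Elovl1 (ENSMUSG00000006390, chromosome 4, 118428093 to 118432953), which lengthens very long saturated and monounsaturated chains, had 3661, 4290 and 4094 normalized counts in heterozygotes and 3339, 3546 and 3486 in wild type. The groups did not overlap, at a ratio of 1.16 (adjusted p = 0.339 by the authors' deposited table). Elovl1 and the protein-coding gene Cdc20 on the opposite strand (mean 354 normalized counts) share 1.94% of the exon bases of Elovl1, and the sources used here do not state whether counting used strand.

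Elovl5 (ENSMUSG00000032349, chromosome 9, 77917364 to 77984519), which lengthens polyunsaturated chains between the steps of Fads2 and Fads1, had 3602, 3005 and 3230 normalized counts in heterozygotes and 3065, 3014 and 3042 in wild type. The heterozygote libraries spread to both sides of the wild type ones. Its log2 fold change was 0.10 ± 0.11 by the authors' deposited table (SE; adjusted p = 0.770). Elovl6 (ENSMUSG00000041220, chromosome 3, 129532355 to 129638495), which takes palmitate to stearate, was the lowest of the 10 genes. It had 83.2, 38.8 and 54.6 normalized counts in heterozygotes and 50.9, 66.2 and 59.4 in wild type, with means of 58.8 in both (adjusted p = 0.996 by the authors' deposited table). Its direction was not stable, since the limma log2 difference was -0.06 and lay between -0.34 and 0.20 when single libraries were left out.

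Levels can be set beside each other only per length of exon, here taken from GENCODE. The spans of Scd1, Scd2, Fads1 and Fads2 there differ from those the authors deposited, so their levels per kb are approximate. On the scale per kb Scd2 led with 8165 normalized counts in heterozygotes and 3648 in wild type. Acly followed with 1705 and 1449 and Elovl1 with 1473 and 1268, heterozygote value first. Elovl5 had 931 per kb in heterozygotes and 863 in wild type, and Fads1 had 917 and 719. Fasn had 331 per kb in heterozygotes and 184 in wild type, Scd1 had 278 and 122, Fads2 had 183 and 51.6, Acaca had 122 and 82.7, and Elovl6 had 9.15 and 9.14. Among neighbours in this order, the heterozygote libraries of Acly and Elovl1, of Elovl5 and Fads1, and of Fasn and Scd1 overlapped, while the wild type libraries of these pairs did not. Scd2 alone made up 57.9% of the summed level per kb of the 10 genes in heterozygotes and 43.4% in wild type. Scd2 exceeded Scd1 per kb 29.4-fold in heterozygotes and 30.0-fold in wild type.

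**Figure D3:**
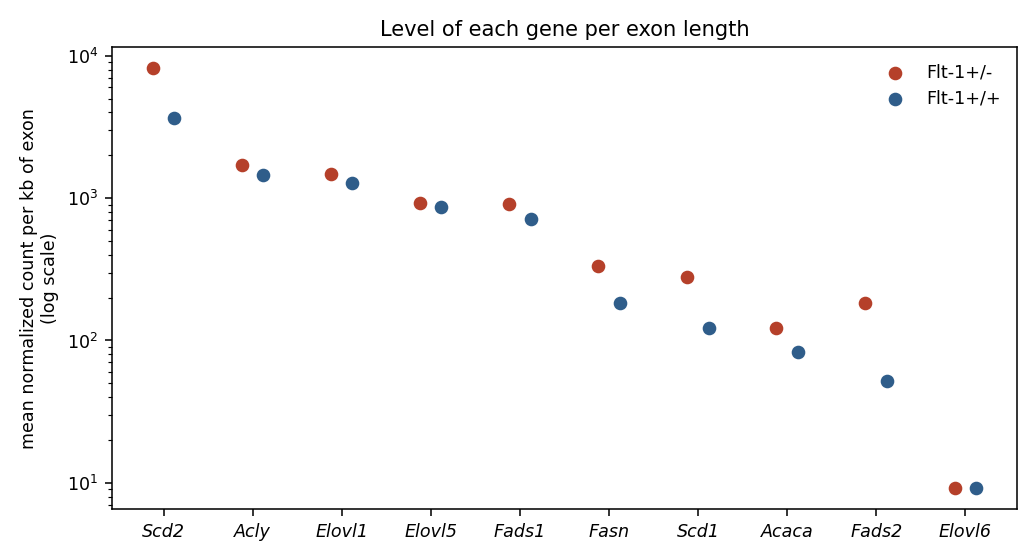
Mean normalized count per kb of exon (y axis, log scale) of the 10 genes in Flt-1+/- (red, left) and Flt-1+/+ (blue, right) libraries, ordered by the Flt-1+/+ level. Scd2 stands at 8165 and 3648 and Elovl6 at 9.15 and 9.14, and of the genes between them Fads2 and Acaca trade places between the genotypes.

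The genes known to regulate this pathway were not called. Of 15 tested regulators of lipogenic transcription, 0 were higher and 0 lower by the authors' deposited table and by limma, with a median log2 ratio of -0.12. Before adjustment the table had p under 0.05 for 2 of them, Rnf145 and Srebf2. Srebf1, which encodes SREBP-1, the main driver of fatty acid synthesis genes, had 1792, 4031 and 2966 normalized counts in heterozygotes and 1906, 1874 and 2534 in wild type. Srebf2, which encodes SREBP-2, the main driver of sterol genes, had 4458, 7626 and 6203 in heterozygotes and 3786, 4002 and 5137 in wild type. Heterozygote library A lay below the wild type range for Srebf1 and within it for Srebf2, and heterozygote library B was the highest of the 6 for both. In the authors' deposited table neither was called (adjusted p = 0.416 for Srebf1 and 0.192 for Srebf2).

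Library A was the lowest of the heterozygote libraries for Srebf1 and Srebf2 and, among the pathway's own genes, for Fasn, Fads2, Acly and Elovl1. It was the highest for Scd1, Fads1, Elovl5 and Elovl6, and Acaca stood near its highest there. Insig1, which holds SREBPs in the endoplasmic reticulum and is itself an SREBP target, had 4603, 4136 and 4989 normalized counts in heterozygotes and 4449, 5289 and 5545 in wild type. Scap, the escort protein of SREBPs, had 795, 1437 and 1117 in heterozygotes and 1169, 1354 and 1679 in wild type. Both overlapped between genotypes, and the authors' deposited table called neither (adjusted p = 0.703 for Insig1 and 0.587 for Scap).

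The liver X receptor genes were also not called. Nr1h3 (LXR alpha) had 197, 326 and 192 normalized counts in heterozygotes and 367, 297 and 338 in wild type. Nr1h2 (LXR beta) had 1057, 3050 and 1910 in heterozygotes and 1903, 2400 and 3145 in wild type. By the authors' deposited table, adjusted p = 0.332 for Nr1h3 and 0.777 for Nr1h2. Mlxipl, which encodes the carbohydrate-responsive factor ChREBP, was listed at 0 in all 3 heterozygote libraries and at 1.85, 3.73 and 0 in wild type libraries, and was not tested.

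**Figure D4:**
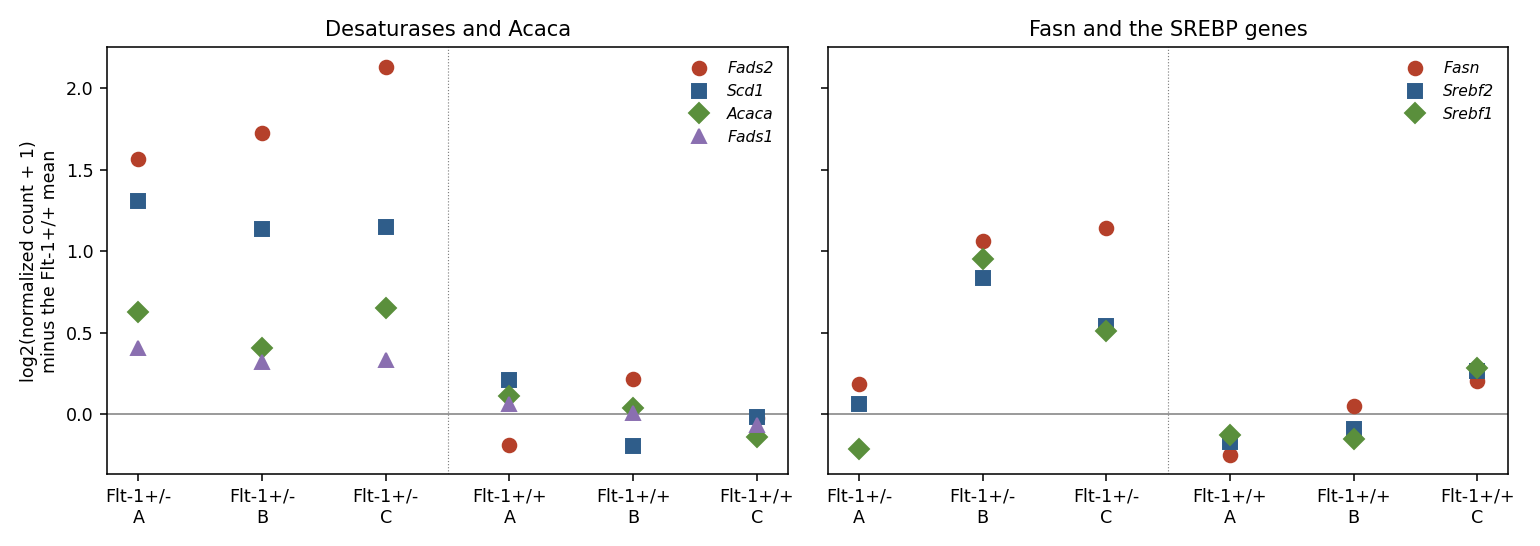
Log2 of normalized count + 1 minus its mean over the Flt-1+/+ libraries (y axis) in each recovered library (x axis) for Fads2, Scd1, Acaca and Fads1 (left) and for Fasn, Srebf2 and Srebf1 (right). In the left panel every Flt-1+/- library lies above every Flt-1+/+ library of its gene, and in the right panel Flt-1+/- library A lies within the Flt-1+/+ range of Fasn and Srebf2 and below that of Srebf1.

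Other genes around the pathway were mostly not called. Of 9 tested genes that supply acetyl-CoA, citrate and NADPH, 0 were called in either direction by the authors' deposited table or by limma, with a median log2 ratio of 0.18, and 4 were higher before adjustment. Among them Me1, the malic enzyme that makes cytosolic NADPH, averaged 986 normalized counts in heterozygotes and 684 in wild type, short of the threshold (adjusted p = 0.0685, the authors' deposited table). Of 10 tested further enzymes of synthesis and elongation, such as the dehydratases of the Hacd family and the reductases Hsd17b12 and Tecr, 0 were called by either test and 0 before adjustment, with a median of 0.05. Of 9 other desaturases and their electron carriers, 2 were higher, Scd3 and Scd4, and 0 lower, with a median of 0.17. The cytochrome b5 genes that feed electrons to the desaturases, Cyb5a and Cyb5b, and the reductase gene Cyb5r3 were not called. Of 8 tested genes of the separate mitochondrial synthesis pathway, 0 were called by either test and 2 were higher before adjustment, with a median of 0.12.

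Among 16 tested genes that activate fatty acids or esterify them, 3 were higher and 1 lower. Lpcat3, which places polyunsaturated chains into phospholipids, averaged 2799 normalized counts in heterozygotes and 2057 in wild type, and was called (adjusted p = 0.000697, the authors' deposited table). Of the acyl-CoA synthetase genes, Acsl3 averaged 2371 in heterozygotes and 1739 in wild type (adjusted p = 0.0216) and Acsl5 13852 and 10655 (adjusted p = 0.0323), by the authors' deposited table. Lpin1, a phosphatidate phosphatase of triglyceride synthesis, was lower, at 585 normalized counts in heterozygotes and 919 in wild type (adjusted p = 6.74e-05 by the authors' deposited table). The median of this list was 0.05.

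Of 11 tested genes of fatty acid uptake and release, 1 was higher and 0 lower, with a median of 0.02. It was Lpl, lipoprotein lipase, with means of 22353 normalized counts in heterozygotes and 15676 in wild type (adjusted p = 0.0107 by the authors' deposited table). Of 21 tested genes of fatty acid oxidation, 0 were higher and 1 was lower, with a median of -0.0007. It was Cpt1a, which admits long chains to mitochondria and is inhibited by malonyl-CoA, the product of Acaca. Cpt1a had 3202, 2968 and 2707 normalized counts in heterozygotes and 4612, 4456 and 4201 in wild type, without overlap (adjusted p = 5.40e-05 by the authors' deposited table). Sterol synthesis, which shares its regulators with fatty acid synthesis, had 13 of 20 tested genes higher and 0 lower, with a median of 0.71; its call with the smallest adjusted p was Fdps, the farnesyl diphosphate synthase gene, at 3410, 3356 and 4465 normalized counts in heterozygotes and 1652, 1768 and 1610 in wild type.

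**Figure D5:**
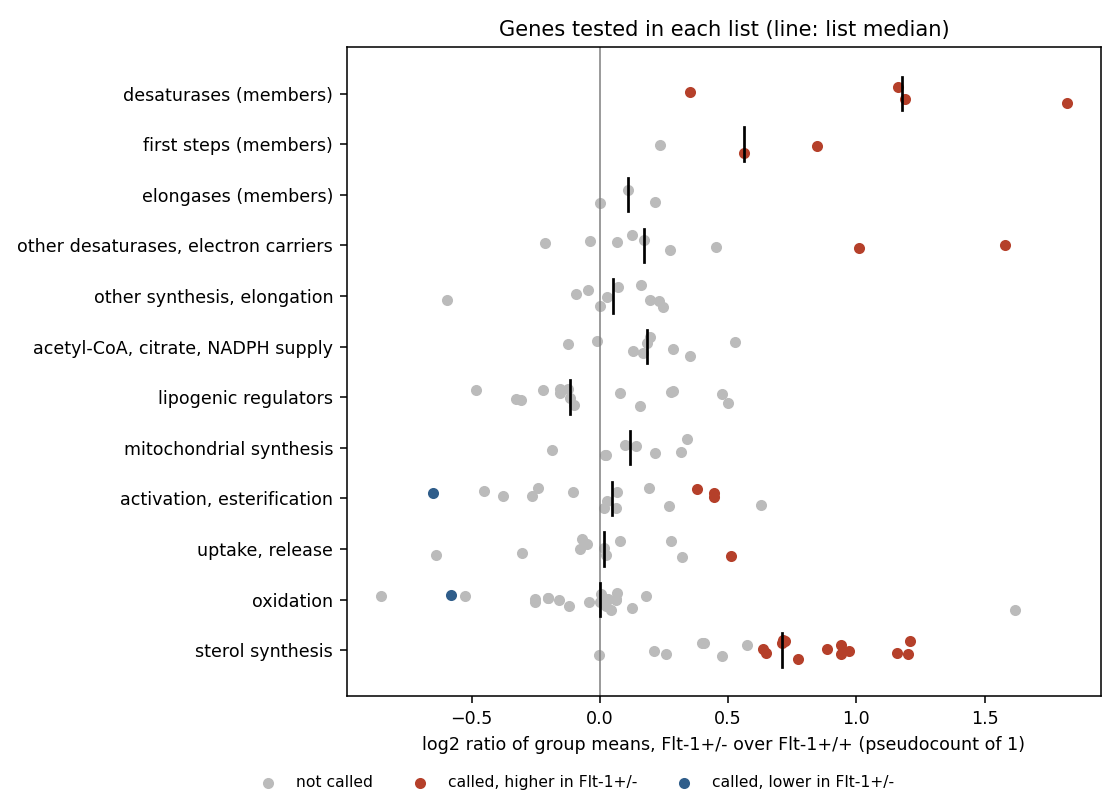
Log2 ratio of the group means, Flt-1+/- over Flt-1+/+ (x axis, pseudocount of 1), of each tested gene (points) in the 3 roles of the 10 genes and in 9 surrounding gene lists (rows), with list medians as black lines. Called genes are red where higher and blue where lower; medians stand at 1.18 for the 4 desaturases, 0.56 for the first steps, 0.11 for the elongases and 0.71 for sterol synthesis, and within 0.2 of 0 in the other 8 lists.

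Both desaturase families sit in clusters on chromosome 19, so their neighbours were examined. Within 250 kb of the Scd genes, 8 other genes were tested and 0 were called by the authors' deposited table or by limma, with log2 ratios between -0.01 and 0.32 and 1 gene, Erlin1, with p under 0.05 before adjustment. Within 250 kb of Fads1 and Fads2, 11 other genes were tested, 0 were higher and 1 was lower, with log2 ratios between -0.75 and 0.45. The lower one was Fth1, the ferritin heavy chain (adjusted p = 0.00986 by the authors' deposited table). Fads3, the neighbouring family member, averaged 163 normalized counts in heterozygotes and 119 in wild type and was not called (adjusted p = 0.264 by the authors' deposited table). Over whole chromosomes, 3.01% of 532 tested genes on chromosome 19 and 2.54% of 1261 on chromosome 11, which holds Acly, Acaca and Fasn, were called higher. These shares include the genes described here. The 16 called on chromosome 19 include Scd1, Scd2, Scd3, Scd4, Fads1 and Fads2, and the 32 on chromosome 11 include Acaca and Fasn. The shares therefore do not describe the other genes of these chromosomes alone.

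To find genes with a like pattern, the log2 values of the 9 recovered genes were centred and averaged into 1 profile over the 6 libraries. It stood at 0.27, 0.21 and 0.39 in heterozygote libraries A to C and at -0.33, -0.25 and -0.29 in wild type libraries A to C. Among 10604 genes with a mean of at least 100, the 5 closest by mean absolute difference included Add3 (0.033), Alpk1 (0.034), Dtl (0.037) and Cacna1d (0.042), and the median distance of all genes was 0.32. Add3, which encodes the membrane skeleton protein gamma-adducin, had 1607, 1532 and 1671 normalized counts in heterozygotes and 1084, 1071 and 1107 in wild type. This likeness is a description over 6 libraries that differ by genotype.

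The macrophage markers Lyz2 (authors' means of 458049 normalized counts in heterozygotes and 441691 in wild type) and Adgre1 (258965 in heterozygotes and 294266 in wild type) were abundant in both groups and not called, and of 12 macrophage markers 0 were higher and 3, Csf1r, Cd68 and C1qb, were lower. Of the neutrophil and precursor markers, 8 of 10 tested were higher and 0 lower, with a median log2 ratio of 3.96. Their summed levels were 4066 to 4903 normalized counts in heterozygote libraries and 1053 to 1227 in wild type libraries. Mmp8 and Lcn2, which were not called, made up most of the wild type sum, with wild type means of 728 and 207. The sums therefore understate the difference of the called markers. The precursor genes Mpo, Elane, Prtn3 and Ctsg were at or near 0 in both groups. Adipocytes also make much of these enzymes, and the 6 adipocyte markers in the table summed to 12.9 to 20.4 in heterozygotes and 5.03 to 17.6 in wild type. Adipoq, Plin1 and Cidec were at or near 0. Adig, the only adipocyte marker tested, had 13.9, 9.94 and 16.4 in heterozygotes and 8.32, 2.80 and 3.02 in wild type. It did not overlap between genotypes and was not called (adjusted p = 0.369 by the authors' deposited table). Of 8 tested fibroblast markers 1, Acta2, was higher and 0 lower, with sums of 819 to 1357 in heterozygotes and 627 to 941 in wild type. The part of these markers in the pathway's result was not tested.

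Results were also taken within each of the library sets with and without mt-Co2 reads. The set with reads holds 1 heterozygote and 2 wild type libraries and the set without holds 2 heterozygote libraries and 1 wild type library, so each ratio rests on a single library on one side and has no test. Within the set with reads, the log2 ratio was 1.54 for Fads2, 1.28 for Scd1, 0.55 for Acaca, 0.37 for Fads1 and 0.28 for Fasn. Within the set without reads, it was 1.97 for Fads2, 1.16 for Scd1, 0.68 for Acaca, 0.39 for Fads1 and 0.90 for Fasn. Elovl6 was at 0.50 with reads and -0.34 without. The median of the 9 recovered genes was 0.37 with reads and 0.39 without, beside 0.35 over all libraries. With the set as a term in limma, Acaca (adjusted p = 0.0362) and Fads1 (adjusted p = 0.0442) were called as well as Fads2 and Scd1. Of all 14948 genes fitted, 3.2% were called with this term, against 2.15% without it.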

How the data were processed

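Per the labels' protocols, sequencing libraries were prepared from rRNA-depleted total RNA using a kit that keeps strand. FastQC, TopHat 1.0.0 and Cufflinks are named with build mm10, per the submitters' processing notes; what each did, how reads were counted and whether strand was used is not given in the sources used here. The signal in the deposited group columns is the authors' mean of normalized read counts over the libraries of a genotype. The deposited log2 fold change (heterozygote over wild type, drawn towards 0 by the authors), its standard error, the score made of their ratio, and the two-sided p-value and adjusted p were used as the authors gave them. The adjusted p is missing for 10989 genes and stayed missing.

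Each group mean is a sum of 3 whole counts, each times a step set by a library's size factor. Counts were solved from the means for 26158 genes (97.7%). Above a mean of 5000, only solutions with each library between 0.5 and 2 times the mean were kept. Above 10000, counts were solved for Scd2 only, within the same range. The procedure was tested on simulated data. Genes with a mean of at least 10 (14948) were then tested in R 4.3.3 by limma 3.58.1 with a trend, on log2(normalized count + 1), with Benjamini-Hochberg adjustment. Log2 ratios of group means have a pseudocount of 1, which understates changes of low genes. Python 3.11.15, numpy 2.4.6 and pandas 2.3.3 did the rest; exon lengths, overlaps and shared 50-base stretches came from GENCODE and promoters from RefSeq (GRCm38.p6). Because the table has values per group and none per sample, the main test is the authors' own.

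The 10 genes and all lists were chosen with earlier results of these data known. Named were the 10 genes, Flt1, 7 regulators whatever their values, up to 4 genes per list with the smallest adjusted p, up to 2 abundant markers per list and the 5 genes nearest in profile. A gene that this rule takes is not reported here. Fth1, Fads3, Erlin1, Rnf145, Csf1r, Cd68, C1qb, Adipoq, Plin1, Cidec, Lcn2, Mpo, Elane, Prtn3, Ctsg, Acta2, Gm5182, Cdc20, mt-Co2, Cyb5b, Cyb5r3, Hacd genes, Hsd17b12 and Tecr were named after their values were seen or for context. Markers of dendritic, B, T, endothelial and erythroid cells were counted too: of 4, 3, 1, 4 and 3 tested, 0, 0, 0, 1 and 1 were higher and 1, 2, 1, 0 and 0 lower. Alternatives were other thresholds, pseudocounts, filters and scaling, a term for the mt-Co2 sets and leaving out each library.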

Additional observations from a re-analysis of the deposited data

How the results depend on the processing

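The deposited calls of 6 genes stood at 4 with a threshold of 0.01 and at 6 with 0.1; limma on the recovered libraries called 2, and the cause of the difference was not tested. limma called 2 of the 9 genes also with no filter, with pseudocounts of 0.5 and 8 and with TMM scaling, 4 with the mt-Co2 set as a term, and between 1 and 3 when each library was left out in turn. The count was 1 with library C of either genotype left out. Over all genes its calls numbered 322 (2.15%), and 46 to 332 (0.308% to 2.22%) with a library left out. They numbered 479 (3.2%) with the set as a term and 295 (1.13%) with no filter. With pseudocounts of 0.5 and 8 they were 2.13% and 2.3% of all genes, and with TMM scaling 2.17%. Adding either Scd2 solution kept within the range, a setting chosen after seeing the data, gave 3 of 10 genes, beside 2.17% of all genes. The median log2 ratio of 0.46 was between 0.45 and 0.46 with other pseudocounts, and between 0.32 and 0.38 over the 9 recovered genes with a library left out. Of 101 further values of single genes under an alternative, 95 moved by less than the spread between libraries, 6 moved by more, all within the libraries with mt-Co2 reads, and none of a called gene changed sign. Of the surrounding lists, limma called 10 of 20 sterol synthesis genes higher, 1 higher and 1 lower of 15 activation and esterification genes, 0 of 8 uptake and release genes and 0 of 8 other desaturases and carriers, and 6 of 10 neutrophil markers higher. The planned edgeR and DESeq2 tests on recovered counts were not run. No paired analysis was possible because the columns carry no replicate numbers and the recovered libraries are not tied to those of the labels. Of the 10 genes Elovl6 had the fewest reads, and no difference in Elovl6 or Flt1 was called. What size of difference could be detected at such counts was not tested.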
